A study of Mus musculus with 6 samples.

Results

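The interferon-inducible GTPases of the guanylate-binding protein (GBP) and immunity-related GTPase (IRG) families were followed in cells selected for the surface antigen F4/80 from the livers of mice given carbon tetrachloride (CCl4). The members were taken from a list of 10 gene symbols, 6 of the GBP family (Gbp2, Gbp3, Gbp5, Gbp6, Gbp7 and Gbp9) and 4 of the IRG family (Irgm1, Irgm2, Igtp and Iigp1), out of 23394 genes with a matched transcript. Each gene was represented by its transcript of highest average level in the 6 libraries. The list holds only some genes of these families and was chosen with earlier results of these data known. No cut on a difference between the groups was applied. All 10 were among the 15619 genes that passed the filter on low values and were tested. Wild-type mice (WT) gave 3 of the libraries and knockout mice (KO) the other 3. Every animal was a male C57BL/6 mouse of 3 months on normal chow that received CCl4, a hepatotoxin, into the peritoneal cavity, and the design text calls the administration chronic. The labels name neither the disrupted gene nor a Cre driver, and give no dose or number of injections, and no group without CCl4 was analysed here. They do not say that each library came from its own animal, so the p-values reflect only how far these samples scatter, which may be technical.

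GBP and IRG proteins are large GTPases that cells make in quantity when interferon, above all interferon-gamma, signals through JAK kinases and through factors of the IRF family. They assemble on the membranes of vacuoles that hold microbes and take part in breaking them, and several GBPs also help caspase-11 sense bacterial lipopolysaccharide. Within the IRG family, Irgm1, Irgm2 and Igtp (also called Irgm3) are regulators that guard the cell's own membranes, while Iigp1 (also called Irga6) is an effector that is loaded onto the vacuole. In liver, macrophages respond to interferon-gamma from T and NK cells, and other liver cells can express these genes too.

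Promoter sequence is shown because interferon acts on genes of these families through short elements near the start site. RefSeq's table for GRCm38.p6, with 250 bases before and 50 after each start, held 7 of the 10 members: Gbp2, Gbp3, Gbp5, Gbp7, Irgm1, Irgm2 and Igtp. Gbp6, Gbp9 and Iigp1 had no entry. The letters searched were GAAANNGAAA on either strand for the interferon-stimulated response element (ISRE), which IRF factors bind, and TTCNNNGAA, which reads the same on both strands, for the gamma-activated site (GAS). The 7 members have 8 promoters in the table. Each member had an ISRE match in a promoter, and 4 (Gbp5, Gbp7, Igtp and Irgm2) had a GAS match. The second promoter of Gbp3 held neither, so 7 of the 8 promoters had an ISRE match and 4 a GAS match, while 3.44% and 8.30% of all 32851 promoters of that length held them. Among 8 other genes of these families searched in the same way, 5 had an ISRE match and 3 a GAS match. A match is a description of the letters and not a bound site. The 110 bases before the start of 3 members that carry both elements follow, 5′ to 3′ on the strand of the gene, with matches in capitals.
Gbp7, chr3:142530226-142530335, plus strand: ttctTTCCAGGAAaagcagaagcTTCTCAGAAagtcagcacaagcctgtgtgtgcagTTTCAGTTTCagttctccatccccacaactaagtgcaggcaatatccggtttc
Igtp, chr11:58199446-58199555, plus strand: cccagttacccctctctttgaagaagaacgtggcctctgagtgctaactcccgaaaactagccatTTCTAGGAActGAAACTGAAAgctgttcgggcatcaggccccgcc
Irgm2, chr11:58214867-58214976, plus strand: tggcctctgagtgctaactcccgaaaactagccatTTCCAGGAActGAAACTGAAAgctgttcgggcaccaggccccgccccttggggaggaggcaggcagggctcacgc
In Igtp and Irgm2 the ISRE match begins 11 bases after the first base of the GAS match, and the same spacing was found in Tgtp1 and Tgtp2, effector IRG genes outside the member list. Gbp5, Gbp7 and Gm12250, an IRG gene outside that list, also hold both elements but at other spacings. Compared without gaps, the Igtp and Irgm2 windows agreed at 78 of 80 bases. For the other 4 members, 30 bases around the matches nearest the start are shown.
Gbp2, chr3:142620594-142620623, plus strand: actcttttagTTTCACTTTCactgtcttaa
Gbp3, chr3:142559992-142560021, plus strand: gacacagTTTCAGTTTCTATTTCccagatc
Gbp5, chr3:142496871-142496900, plus strand: ctggccgttatTTCTCAGAAccaagcacag
Irgm1, chr11:48871428-48871457, minus strand: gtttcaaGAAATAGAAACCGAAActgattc
Gbp3 and Irgm1 each hold a pair of overlapping ISRE matches, Gbp2 holds a single one whose first base is 59 bases before the start, and the ISRE match of Gbp5 lies farther up, at 165 bases, outside the stretch shown.

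Iigp1 rose in the KO libraries and was the only one of the 10 members to pass the test over all genes. The other IRG members and the GBPs gave smaller differences, none of which passed. Values are normalised counts, meaning read counts scaled by the authors with a single factor for each library. Tests used limma on log2(value + 1), a scale that understates the change of low genes, with Benjamini-Hochberg adjustment over 15619 genes and calls at an adjusted p under 0.05. One of 10 members was called, in the higher direction, where 2.44% of all tested genes were called in either direction and 2.09% as higher. The median log2 change of the 10 members was 0.32, beside 0.05 for all tested genes, and 8 of the 10 were above 0, beside 54.2% of all genes. In 4 members (Iigp1, Gbp2, Gbp6 and Irgm2) every KO library lay above every WT library, which held for 13.7% of all tested genes. With 3 libraries a group, the precision for a single member also depends on its 84 to 1688 reads per library. Summed over the 1 transcript kept per gene, the libraries held 10790842 to 22157238 reads. Because the cells are a bulk sample, fewer cells of a type and less RNA per cell cannot be told apart.

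**Figure D1:**
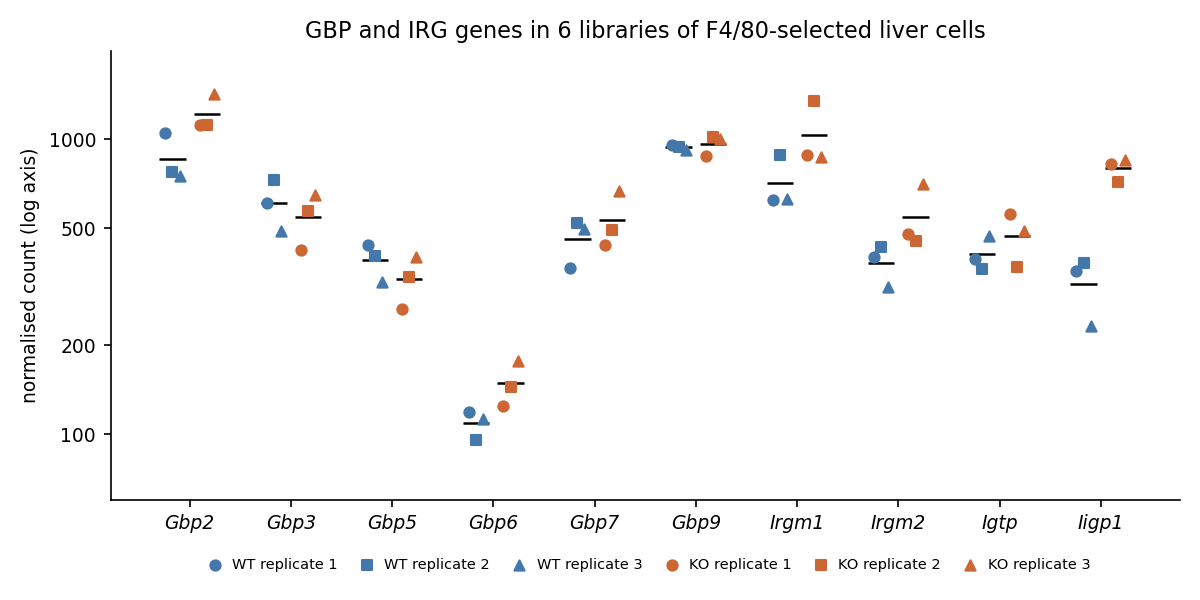
Normalised counts (log axis) of the 10 members in each of the 6 libraries, with WT in blue, KO in orange, a marker shape per replicate number and a bar at each group mean. The KO points of Iigp1 lie between 720 and 853, above its WT points at 233 to 382, while most other members overlap.

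Iigp1, the effector IRG, stood at 356.5, 382 and 233 normalised counts in WT replicates 1, 2 and 3 and at 827, 720 and 853 in the KO replicates. All 3 KO libraries were high and lay close together, and WT replicate 3 was the lowest of the 6. The means were 324 ± 79.7 in WT and 800 ± 70.8 in the KO group (SD, n = 3 per group), a log2 change of 1.33 (SE 0.23, 95% interval 0.82 to 1.84, limma adjusted p = 0.0252), or 2.51-fold on the scale tested. edgeR's quasi-likelihood test on the recovered reads gave 1.25 with an adjusted p of 0.0328. The call was lost without WT replicate 1, KO replicate 2 or KO replicate 3, with limma adjusted p of 0.0512, 0.0638 and 0.113, although the log2 change stayed between 1.11 and 1.47 in the 6 fits that left out 1 library. Few of its bases are shared with other genes: 3.19% of the 50-base windows of its transcript occurred in transcripts of another gene, mostly Gm4951.

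Among the regulators, Irgm1 held 622, 888 and 629 normalised counts in WT and 885, 1352 and 873 in KO libraries. KO replicate 2 stood apart at the top, while the other KO libraries were at the level of WT replicate 2, so the groups overlapped. Its log2 change of 0.53 (SE 0.23, interval 0.00 to 1.05) had a limma adjusted p of 0.274. Irgm2 was at 400, 430.5 and 316 in WT and at 478, 453 and 707 in KO libraries, with KO replicate 3 highest. Although its groups did not overlap, the log2 change of 0.50 (SE 0.23, interval -0.03 to 1.02) did not pass, with a limma adjusted p of 0.308. Igtp held 393.5, 363 and 472 in WT and 557, 368 and 489 in KO libraries, with overlap, with a log2 change of 0.19 (interval -0.30 to 0.68) and a limma adjusted p of 0.717. Igtp and Irgm2 share 162 exon bases on the same strand, which is 8.0% of the exon bases of Igtp and 4.4% of those of Irgm2. The 50-base windows they share are 12.3% of the Igtp transcript and 7.07% of that of Irgm2, so reads of these overlapping genes may not be fully separated.

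Of the GBPs on chromosome 3, Gbp2, which acts in defence against Toxoplasma, was at 1055, 775 and 751 in WT and at 1116, 1118 and 1427 in KO libraries. The KO libraries were all higher, but the lowest of them exceeded WT replicate 1 only narrowly. Its log2 change was 0.51 (SE 0.20, interval 0.07 to 0.96), with a limma adjusted p of 0.213. Gbp7 held 366, 519 and 497.5 in WT and 439.5, 492 and 666 in KO libraries, which overlapped, for a log2 change of 0.20 (limma adjusted p = 0.709). The remaining pair had negative values. Gbp3 was at 608, 727 and 491 in WT and at 422, 573 and 648 in KO libraries, a log2 change of -0.16 (interval -0.67 to 0.36, limma adjusted p = 0.785), which turned to 0.02 without KO replicate 1. Gbp5, known for its role beside the NLRP3 inflammasome, stood at 438, 403 and 327 in WT and 265, 342 and 400 in KO libraries, with a log2 change of -0.22 (interval -0.74 to 0.29, limma adjusted p = 0.673). In both genes KO replicate 1 was the lowest library, and the other KO libraries lay within the WT range.

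On chromosome 5, Gbp9 was the steadiest member, at 956, 946 and 919 normalised counts in WT and 882, 1021 and 1001 in KO libraries. Its highest library held 1.16 times its lowest, against 1.53 to 3.66 times for the other 9 members. The log2 change was 0.04 (SE 0.16, interval -0.32 to 0.40, limma adjusted p = 0.933) with the authors' factors, and -0.02 with TMM factors. The transcript kept for Gbp9 is a retained-intron model, and with the highest coding transcript the value was 0.05. Those kept for Gbp5 (nonsense-mediated decay) and Gbp6 (retained intron) are not coding models either. With the highest coding transcript their log2 changes were -0.194 and 0.485. Gbp6 was the least abundant member, at 118.5, 95.5 and 113 in WT and 125, 144 and 177 in KO libraries, with no overlap and a log2 change of 0.44 (SE 0.28, interval -0.18 to 1.06, limma adjusted p = 0.463). Its count is uncertain, because 59.7% of the 50-base windows of its transcript recur in Gm43302, Gbp10 or other genes, and it shares 29.0% of its exon bases with Gm43302 on the same strand. For the 9 members that were not called, the intervals reach up to 1.06 in the higher direction and -0.74 in the lower, so differences within those limits are not excluded at this size.

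**Figure D2:**
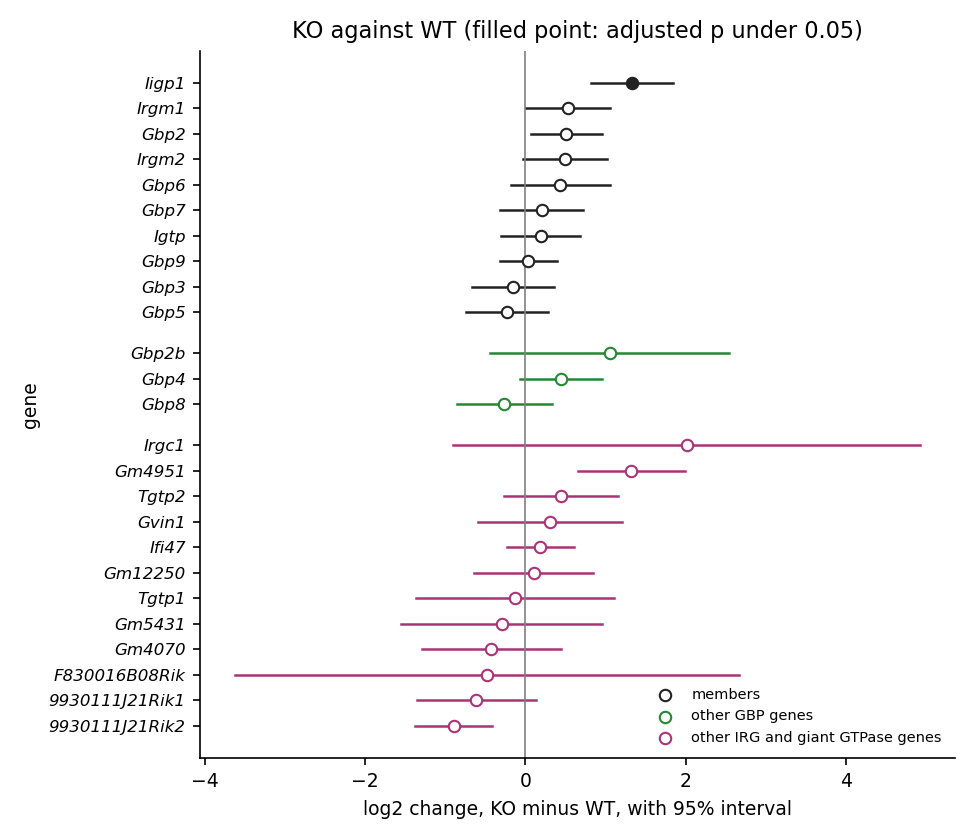
Log2 change of KO minus WT (points) with 95% intervals (lines) for the 10 members, 3 other GBP genes and 12 other IRG and giant GTPase genes, and filled points for an adjusted p under 0.05. Iigp1 is the only filled point, and Gm4951 lies at nearly the same log2 change, 1.325.

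The members lie in clusters, with 4 on chromosome 3, 2 on chromosome 5, 3 on chromosome 11 and Iigp1 on chromosome 18. In GRCm38 the GBP genes of chromosome 3 are on the plus strand from Gbp5 at 142493978 to the end of Gbp2 at 142638008, and Gbp9 and Gbp6 run along chromosome 5 on the minus strand, at 105077630 to 105139539 and 105270702 to 105293698. Irgm1 is read from the minus strand of chromosome 11, at 48861968 to 48871683, while Igtp and Irgm2 overlap on its plus strand, at 58199556 to 58207591 and 58199618 to 58222782. Iigp1 is on the plus strand of chromosome 18 at 60376027 to 60392634.

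Per kilobase of the transcript kept, which allows genes to be compared with each other, the order of mean levels in WT libraries ran from Gbp2 and Irgm1 through Gbp3, Igtp, Gbp9, Irgm2, Iigp1, Gbp5 and Gbp7 to Gbp6. This order depends on the length of the model kept, and those of Gbp5, Gbp6 and Gbp9 are not coding. For Gbp5 the highest coding model has 3055 bases against 3756, at 98.3% of the mean count, so its place would be higher with that model. Gbp2 stood at 342 ± 67.1 normalised counts per kilobase and Irgm1 at 316 ± 67.1, which did not differ beyond their spread. In WT libraries neighbours in this order overlapped except Irgm1 over Gbp3, Gbp9 over Irgm2 and Gbp7 over Gbp6. Iigp1, at 104 ± 25.6, overlapped with Irgm2 at 110 ± 17.2 and with Gbp5 at 104 ± 15.0 (SD, n = 3 each). In KO libraries Iigp1 had the third highest mean with 256 ± 22.7 per kilobase, which overlapped with Igtp at 233 ± 47.3, after Gbp2 at 485 ± 71.3 and Irgm1 at 459 ± 121. Gbp6 was last in both genotypes, at 25.7 ± 2.82 in WT and 35.04 ± 6.15 in KO libraries, and its values did not overlap with those of Gbp7 in any library. The share of Iigp1 in the summed normalised counts of the 10 members was 4.91% to 6.91% in WT libraries and 10.9% to 13.8% in KO libraries. Summed counts of the 4 IRG members were 1772, 2064 and 1650 in WT and 2747, 2893 and 2922 in KO libraries, while the 6 GBP members summed to 3541, 3465 and 3099 and to 3249, 3690 and 4320, which overlapped.

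The members did not form a single profile across libraries. KO replicate 3 was the highest library for 5 of them (Gbp2, Gbp6, Gbp7, Irgm2 and Iigp1), KO replicate 2 for 2, and KO replicate 1 for Igtp, while Gbp3 and Gbp5 peaked in WT libraries. WT replicate 3 and KO replicate 1 were each the lowest library for 3 members. As a description over the 6 libraries, 35 of the 45 pairs of members had a Pearson r above 0, with a median of 0.34. The libraries share their scaling factor and cell makeup across genes, so these values are no measure of common control. Gbp2 with Gbp6 and Gbp3 with Gbp5 were the closest pairs, at 0.90 and 0.89, and Gbp3 with Igtp was the most opposed, at -0.72.

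**Figure D3:**
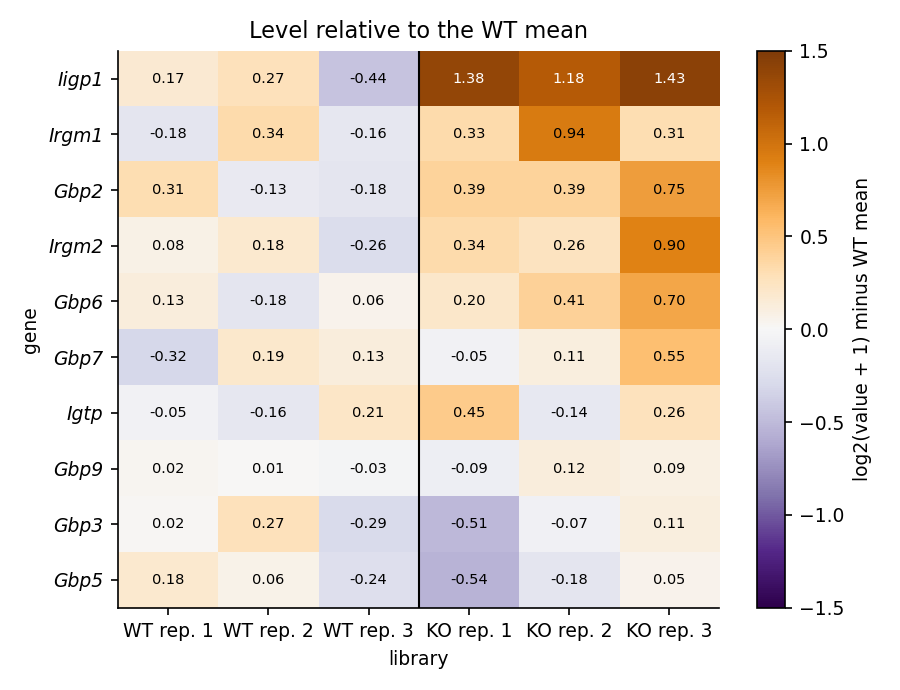
Level of each member (rows) in each library (columns) as log2(value + 1) minus the WT mean of that gene, with the number printed in each cell and orange for higher. Iigp1 reads 1.38, 1.18 and 1.43 in the KO libraries, and Gbp5 reads -0.54 in KO replicate 1 against 0.05 in KO replicate 3.

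Genes whose pattern was most like the mean of the members' scaled log2 values were sought among 11028 other tested genes with a mean of at least 100. Over the 6 libraries the 8 most alike were Cd84, Retsat, Gpld1, Peak1, Amy1, Gja1, Mug1 and Cpn2, with Pearson r of 0.99 for Cd84 and at least 0.985 for the others. None of the 8 was called, with limma adjusted p of 0.126 to 0.366. After each genotype's mean was subtracted, the 8 were Naip1, Itgam, Gm49368, Arhgap1, Pgrmc1, Gpld1, Slc25a51 and Adamts9, with r of at least 0.993. Gpld1 alone was in both sets. Both sets are the top of a ranking of 11028 genes over only 6 libraries, so such r values are no measure of common control.

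Other genes of these families were read from lists of relatives. Of the other GBP genes, 3 of 5 were tested and none was called. Gbp4, from the chromosome 5 cluster, was at 464, 492 and 782 in WT and 782, 810 and 710 in KO libraries, a log2 change of 0.44 (limma adjusted p = 0.351), with WT replicate 3 level with the KO libraries. Gbp10 and Gbp11 were too low to test. Of 12 other IRG and giant GTPase genes none was called, 6 were above 0 and the median log2 change was -0.01. Gm4951, an IRG relative on chromosome 18 at 60212080 to 60247820, was nearest to the threshold. It lies 128206 bases before Iigp1, with 2 measured genes between them, F830016B08Rik and Gm4841. F830016B08Rik, another IRG relative, was at 21.6, 28.35 and 10.1 in WT and 0, 42.9 and 60.9 in KO libraries, with overlap. The log2 change of F830016B08Rik was -0.48 (limma adjusted p = 0.902). Gm4951 stood at 82.4, 123 and 69.6 in WT and 197, 232 and 248 in KO libraries, without overlap. Its log2 change of 1.325 (SE 0.29, interval 0.66 to 1.99) had a limma adjusted p of 0.0525. It was called without WT replicate 2 or KO replicate 1 (limma adjusted p = 0.0466 and 0.0473), and by DESeq2 (adjusted p = 0.00316). DESeq2 called 1409 genes in all, against 381 by limma. The 50-base windows that Iigp1 shares with Gm4951 are 2.83% of its transcript. 9930111J21Rik2, on chromosome 11, went the other way, at 392, 394 and 469 in WT and 191, 255 and 230 in KO libraries, a log2 change of -0.89 that did not pass (limma adjusted p = 0.0614) but was called by DESeq2 (adjusted p = 0.00412). The effector IRG genes Tgtp2 and Ifi47 had log2 changes of 0.45 and 0.19, with limma adjusted p of 0.515 and 0.667.

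Upstream of the GTPases, none of 12 genes of the interferon-gamma pathway was called, and their median log2 change was -0.07. Ifng, the ligand, was at 328, 148 and 499 in WT and 715, 250 and 212 in KO libraries, with KO replicate 1 highest and the other KO libraries inside the WT range (log2 change 0.22, limma adjusted p = 0.878). This count may include reads of Gm49751, which overlaps 25.9% of the Ifng exon bases on the same strand. Ifngr1, the ligand-binding receptor chain, had the smallest p of the list, with means of 4311 ± 666 (WT) and 3032 ± 804 (KO; SD, n = 3 per group; log2 change -0.53, limma adjusted p = 0.256). Its partner Ifngr2 had a log2 change of -0.35, and the kinases Jak1 and Jak2 had 0.30 and -0.30, with limma adjusted p of 0.365, 0.499 and 0.452. Irf1 and Irf8 had log2 changes of 0.09 and -0.12, with limma adjusted p of 0.911 and 0.846.

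Among 17 tested targets of interferon-gamma that are not GTPases, none was called, 11 were above 0 and the median log2 change was 0.12. The member of smallest p was Cd274, which encodes the checkpoint ligand PD-L1, with means of 2160 ± 794 (WT) and 1091 ± 312 (KO; SD, n = 3 per group; log2 change -0.96, limma adjusted p = 0.119). Of 9 genes of type I interferon signalling none was called; Ifnb1, the interferon-beta gene, was at 103, 185 and 17.97 in WT and 13.4, 17.9 and 30.4 in KO libraries, a difference carried by WT replicates 1 and 2 (limma adjusted p = 0.269). Of 21 type I interferon targets, 17 had a positive log2 change and the median was 0.51. Among all tested genes 54.2% were above 0 and 2.44% were called. In this list 1 gene was called. This was Ifit3, an antiviral RNA-binding protein, at 125, 195 and 160 in WT and 365, 390 and 307 in KO libraries, a log2 change of 1.16 (limma adjusted p = 0.047). The groups of Ifit3 did not overlap and DESeq2 called it (adjusted p = 0.00232). The call was lost with TMM factors (limma adjusted p = 0.0571), with edgeR (0.0619) and with a replicate block (0.0601). It was also lost without the low-value filter (limma adjusted p = 0.0541), with summed transcripts (limma adjusted p = 0.0828), and in each of the 6 fits without 1 library (limma adjusted p from 0.0509 to 0.168). The list of 19 partners that target GTPases to vacuoles or act with caspase-11 had no called gene and a median of -0.01. Its member of smallest p was Gabarapl1, a ubiquitin-like protein of autophagy membranes, with a log2 change of 0.90 (limma adjusted p = 0.0686) that DESeq2 called (adjusted p = 0.0132). A transcript on the opposite strand overlaps 28.3% of its exon bases.

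**Figure D4:**
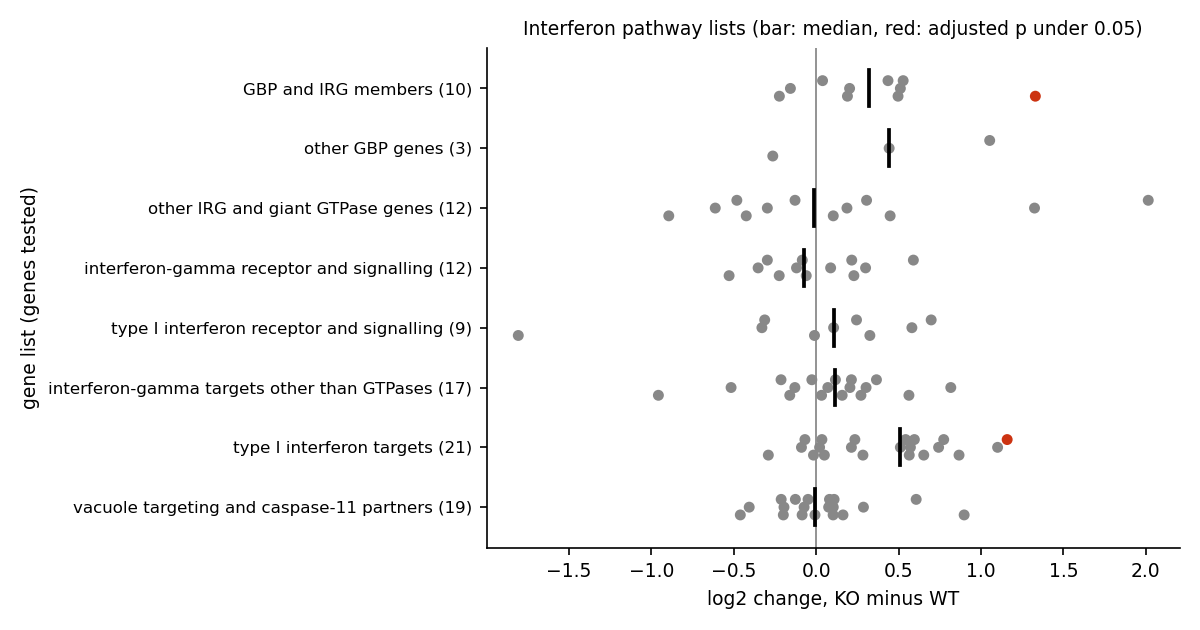
Log2 change of KO minus WT for each tested gene (points) of the members and 7 pathway lists (rows, with the number of genes tested), with black bars at list medians and red for an adjusted p under 0.05. Red points are Iigp1 and Ifit3, and the medians run from -0.07 to 0.51.

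The labels call the cells macrophages, and the levels of other cell types' markers moved with genotype, so these lists are given beside the rise of Iigp1. Adgre1, which encodes F4/80, was read in all 6 libraries at 4441 to 7644 normalised counts. Lyz2, 1 of the 9 macrophage markers, fell from a mean of 89490 in WT to 1335 in KO libraries. Its log2 change was -6.20 (limma adjusted p = 0.00151). Without Lyz2, the macrophage markers summed to 66530 to 97810 in WT and 51160 to 59330 in KO libraries. Much of that sum is Csf1r and Ptprc, although in KO replicate 3 Itgam (14160) exceeded Ptprc (9848). The KO values of Csf1r and Ptprc lay below WT without being called. The other 6 markers overlapped between the groups, with log2 changes of -0.23 to 0.21. Of all tested genes, 54.2% were above 0 and 2.09% were called as higher. All 14 hepatocyte markers were above 0 and 8 rose, with sums of 27170 to 82960 in WT and 109500 to 200300 in KO libraries. All 13 endothelial markers were above 0 and 6 rose, and sums were 36480 to 68360 and 77060 to 158000. The 12 stellate cell and myofibroblast markers summed to 18660 to 24920 and to 30010 to 53370, with 2 called as higher. Most of that sum is Col3a1, Col1a2, Col1a1 and Dcn. Of the 12, 10 were above 0, while Lrat and Reln had log2 changes of -0.46 and -0.53 that were not called. T and NK cell markers, of which none of 16 was called, summed to 6307 to 14740 and to 7111 to 17060. Within the KO group, Iigp1 stood at 827, 720 and 853 in replicates 1, 2 and 3. The hepatocyte sums in the same order were 109500, 138800 and 200300, the endothelial sums 77060, 158000 and 121200, the stellate cell sums 30010, 32970 and 53370, and the T and NK cell sums 17060, 8552 and 7111. Most of the hepatocyte sum is Alb, at 64230, 88350 and 116000 in KO replicates 1, 2 and 3, which was not called. Among the called hepatocyte markers, Tat, Cyp2e1, Cps1, Hpd, Pck1 and Tdo2 were lowest of the KO libraries in replicate 2. Serpina1a and Mup3 instead increased from KO replicate 1 to 3. Erythroid markers, 7 of 8 measured, summed to 2221 to 33340 and to 30740 to 268700, with none called. Kupffer cell markers summed to 23910 to 78150 in WT and 23570 to 34230 in KO libraries with none of 7 called. Within that list Marco had a log2 change of -1.63 with every KO library below WT (limma adjusted p = 0.102), and Clec4f had 1.11 with every KO library above WT (limma adjusted p = 0.0537). All 8 monocyte markers had negative log2 changes (median -0.67), and 4 had every KO library below every WT library. Such a separation held for 1444 of the 15619 tested genes. Of these 4 markers Cx3cr1 was called as lower, as were 55 of all tested genes. The monocyte list summed to 34670 to 53570 in WT and 17550 to 38840 in KO libraries. No neutrophil, B cell or dendritic cell marker was called. No hepatocyte, endothelial, stellate cell, or T and NK cell marker of these lists was at 0 in any library. The part of these cells in the level of Iigp1 or of the other members was not tested.

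**Figure D5:**
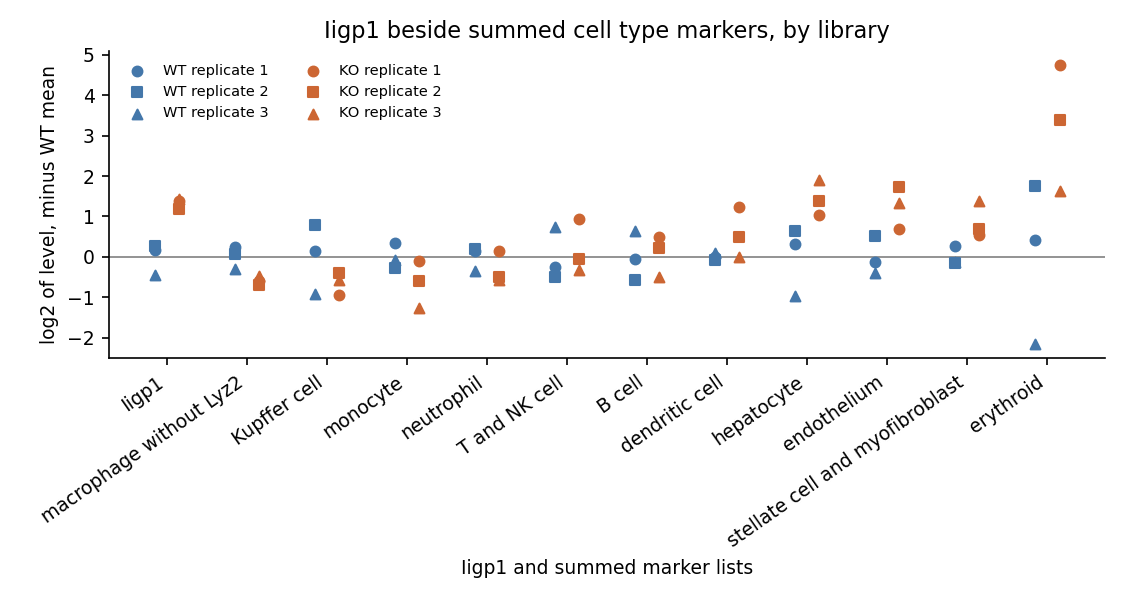
Iigp1 and the summed levels of 11 marker lists in each library, as log2 minus the WT mean, with WT in blue, KO in orange and a marker shape per replicate number. Iigp1, hepatocyte, endothelial and stellate cell points are higher in all 3 KO libraries than in any WT library. The macrophage sum without Lyz2, to which Csf1r and Ptprc contribute much, is lower.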

How the data were processed

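Polyadenylated RNA of F4/80-selected liver cells was sequenced from 3 WT and 3 KO libraries with a strand-specific kit, per the labels. The submitters' processing notes name bcl2fastq 2.17, STAR 2.4.0k, SAMtools, HTSeq 0.5.3, DESeq 1.8.3 and GRCm38.p4 without roles, while for the counting options nothing is given in the sources used here. The deposited signal is a transcript's read count after scaling by the authors with a single factor for each library, as the values show and per the file headers. Every value (100%) was a whole multiple of what 1 read is worth in its library, within 0.001, so reads were recovered.

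GENCODE M21 (GRCm38) matched 78332 of 79382 transcripts, and the highest per gene was kept. limma 3.58.1 with a trended prior compared KO with WT over 15619 genes that edgeR's filterByExpr kept on the recovered reads, in R 4.3.3. edgeR 4.0.16 and DESeq2 1.42.0 on recovered reads, other scalings, pseudocounts, filters and transcripts, a replicate block, and fits without each library in turn served as alternatives. edgeR called 282 genes on the reads, against 381 by limma. The test was checked on counts simulated with the same dispersion for every gene, so the check does not measure its error rate in these libraries.

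The members and lists were chosen with earlier results of these data known. Named genes are the members, called or smallest-p genes of each list, the interferon-gamma signalling core, and the 8 most alike genes. Some genes of the lists are counted there but not reported singly.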

Additional observations from a re-analysis of the deposited data

How the results depend on the processing

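Over 16 alternatives, 153 of 160 values for single members kept their direction and their side of the threshold. No member other than Iigp1 was called under any of them. Iigp1 kept its call in 13 and lost it without WT replicate 1, KO replicate 2 or KO replicate 3, where fewer libraries were tested. Of the members, 0 to 1 were called in the fits without 1 library. The log2 change of Gbp9 was -0.011 with edgeR, -0.017 with TMM factors in limma and -0.001 to 0.105 without 1 library. That of Gbp3 was -0.30 to 0.02 without 1 library. Over all genes, 381 were called by limma, 1409 by DESeq2, 233 with the transcripts of a gene summed, and 8 to 809 without 1 library, fewest without KO replicate 3 and most without KO replicate 1. The cause of the differences between tests was not tested. The highest coding transcript was an alternative chosen after seeing the data.

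Replicate numbers were not treated as pairs: the deviations of same-numbered libraries had correlations of -0.01, 0.09 and -0.14, and libraries did not all correlate best with their own number. With a replicate block 539 genes were called, and Iigp1 had a limma adjusted p of 0.0288.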

Other observations

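Shorter transcript models of the members did not always follow the one kept. The model Gbp2-202, of the nonsense-mediated decay type and 853 bases long, held 317, 272 and 232 normalised counts in WT and 195, 286 and 412 in KO libraries, which overlapped, while those of the kept Gbp2 transcript did not. Irgm1-202, a coding model, held 343, 562 and 371 in WT and 378, 786 and 484 in KO libraries, at 55.7% of the mean of the kept transcript. The second coding model of Iigp1 had a mean at 99.9% of that of the first, so both give nearly the same values.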
